A study of Mus musculus with 8 samples.

Results

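The synthesis of fatty acids and milk triglycerides was followed through 34 genes in mouse mammary tumours. They were named by function and found on the arrays as non-control features whose RefSeq accession belongs to a listed gene, which gave 50 features. Each of the 34 passed the filter on dim probes, which asks for a signal well above background throughout 1 or more groups, and so they were 34 of 14147 genes tested. Of these, 33 were above background in all 16 tumours and Cd36 in 15. The list held 8 genes of de novo synthesis, 7 of desaturation and elongation, 7 of uptake and activation, 6 of esterification, and 6 of droplet coating, secretion and lipolysis.

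The samples were pieces of mammary tumours of the MMTV-PyMT model, in which a mouse mammary tumour virus promoter, active in mammary epithelium, drives the polyoma middle T oncogene. The pieces grew orthotopically in wild-type FVB mice. RANK-Fc, a soluble form of the receptor RANK that binds RANK ligand, was injected into the peritoneum at 10 mg/kg, 3 times per week. In passage 1 there were 2 control tumours and 3 tumours under RANK-Fc. Passage 2 held 2 controls that had no RANK-Fc in either passage, 3 tumours treated in passage 2 alone (current-only), 3 whose treatment had been in the earlier passage alone (earlier-only), and 3 treated in both (both-passage). For passage 2 tumours the labels call treatment in the earlier passage neoadjuvant. Treatment in the sampled passage is called adjuvant, in passage 1 as in passage 2. All groups share the FVB background, the PyMT transgene and the transplantation. The wild-type hosts keep their own RANK and RANK ligand, and a piece of tumour can carry host fat, stroma and muscle. Age, and which passage 1 tumour gave rise to which passage 2 tumour, are not given in the sources used here. Replicate numbers below are names only.

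In the lactating mammary gland, secretory epithelium makes fatty acids from citrate-derived acetyl-CoA, takes up others from blood lipoproteins, joins them to glycerol as triglyceride and releases them as membrane-wrapped droplets. Prolactin, acting through STAT5 and Elf5, and the lipogenic factor SREBP1 are the best known regulators of this programme. RANK ligand is produced by hormone-sensing luminal cells in response to progesterone and acts on neighbouring RANK-positive cells, which links it to the growth and differentiation of the same epithelium.

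Gene expression was read as the brightness of probes on 8 two-colour arrays, with a different tumour in each dye. Between 47.5% and 56.5% of spots were well above background, and no spot was saturated. Expression profiles of tumours of the same group correlated at a median of 0.986 over 14 pairs, against 0.979 between groups, across genes, which are not independent replicates. The mean of 10 luminal epithelial markers lay between 11.97 and 12.29 in every tumour, so the labelled tissue carried its defining markers throughout. Single markers varied more, with Krt19 between 10.41 and 12.77 and Cldn4 between 8.41 and 10.21. Levels are normalised log2 intensities of the brightest probe of a gene and can be compared between tumours but not between genes. Differences come from limma with a term for dye, so they need not equal the plain difference of group means, and each is given with its standard error (SE). A gene was called at an adjusted p under 0.05, with Benjamini-Hochberg adjustment over all 14147 genes. The labels give each tumour a code of its own, and the p-values measure the spread between these few tumours.

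Passage was the contrast in which members were called. It was measured on the tumours that had met no RANK-Fc in an earlier passage, as the average of the difference between controls and the difference between tumours under current treatment (5 tumours of passage 2 against 5 of passage 1). In passage 2 the droplet coat gene Plin2 was 2.93-fold higher, the phosphatidate phosphatase gene Lpin1 1.50-fold, the lipogenic regulator gene Thrsp 1.80-fold and the acetyl-CoA carboxylase gene Acaca 1.52-fold, while the acyl-CoA synthetase gene Acsl4 was 2.42-fold lower and the diacylglycerol acyltransferase gene Dgat2 2.43-fold lower. The other 28 members did not pass. Called members made up 6 of 34 (17.6%) beside 12.1% of all genes tested. The 4 called higher stand beside 4.21% of all genes (596) and the 2 called lower beside 7.89% (1116). At an unadjusted p under 0.05 the count was 14 of 34 (41.2%), beside 26.6% of all genes. The median difference of the members was 0.18, against -0.01 over all genes, and 24 of 34 were higher (70.6%, against 48.9% of all genes). When each channel was only centred on its median, the median of all genes moved to -0.12 and the calls over all genes to 212 higher and 892 lower, while the members' median was 0.10.

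**Figure D1:**
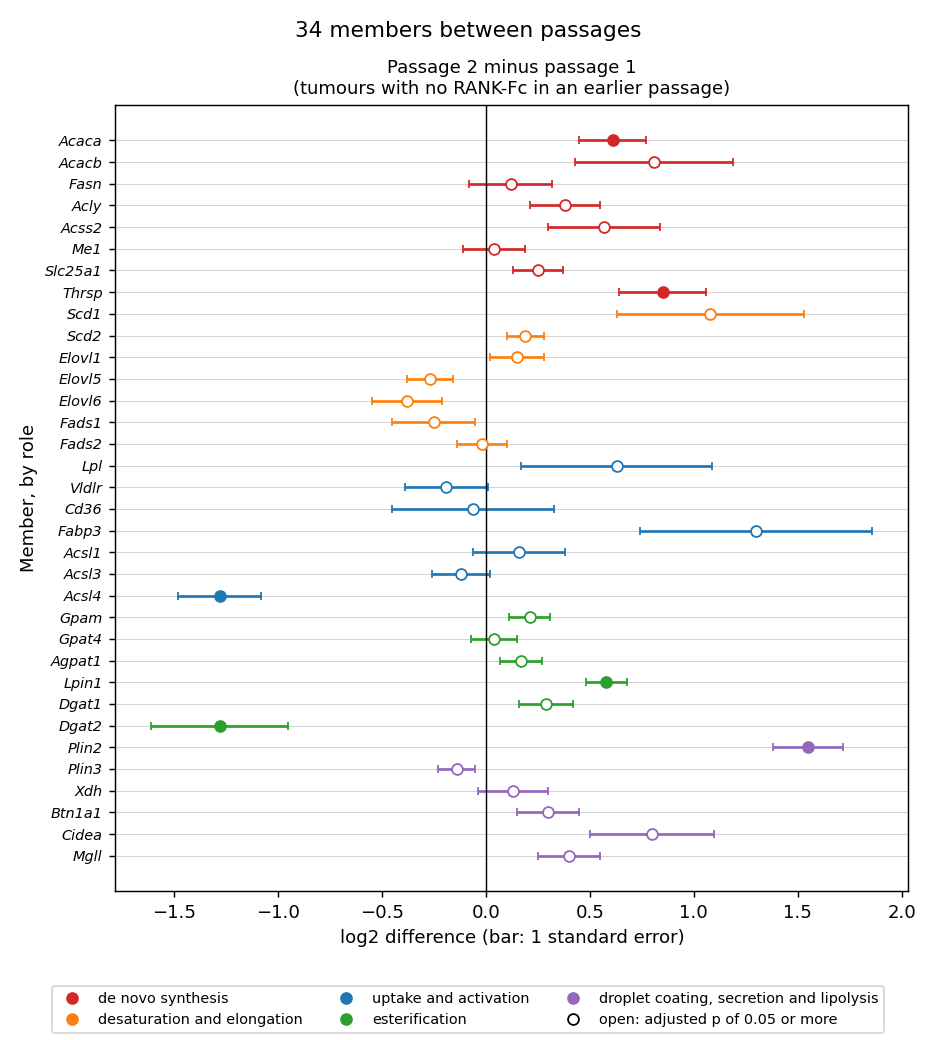
Log2 difference between passage 2 and passage 1 (x axis) for each of the 34 members (y axis, ordered and coloured by role), among tumours with no RANK-Fc in an earlier passage. Points are limma estimates, bars 1 standard error, and filled points passed at an adjusted p under 0.05: Plin2, Lpin1, Thrsp and Acaca to the right of 0 and Acsl4 and Dgat2 to the left.

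Plin2 encodes perilipin 2, also called adipophilin, which coats cytoplasmic lipid droplets and milk fat globules. Its level was 13.64 and 13.38 in the passage 1 controls, 14.16, 13.56 and 13.35 under RANK-Fc in passage 1, 15.28 and 15.12 in the passage 2 controls, 14.82, 15.79 and 14.86 in current-only tumours, 14.43, 14.29 and 14.86 in earlier-only tumours, and 15.37, 14.53 and 14.57 in both-passage tumours. All 11 tumours of passage 2 were above all 5 of passage 1, with the gap between 14.16 and 14.29. The difference between passages was 1.55 ± 0.17 (SE; adjusted p = 0.000204, limma), and 1.67 ± 0.25 between the controls alone (adjusted p = 0.00642). The call between passages held without any 1 of the 16 tumours (1.46 to 1.65).

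Lpin1 encodes lipin 1, which makes the diacylglycerol that the last step of triglyceride synthesis uses. The passage 1 levels were 8.23 and 8.63 in controls and 8.70, 8.60 and 8.71 under RANK-Fc. In passage 2 they were 9.19 and 9.08 in controls, 8.99, 9.40 and 9.19 in current-only, 8.79, 9.03 and 8.86 in earlier-only, and 9.26, 9.20 and 9.15 in both-passage tumours. The ranges of the passages did not overlap, and passage 1 control 1 was the lowest tumour. The difference was 0.58 ± 0.10 (SE; adjusted p = 0.00326, limma) and stayed between 0.47 and 0.71 when any 1 tumour was left out, each time with a call. Between the controls alone it was 0.68 ± 0.16 (adjusted p = 0.0364), a call that ended in 7 of the 16 fits without 1 tumour. These were the fits without passage 1 control 1 (0.44, adjusted p = 0.379), passage 2 control 1 (0.60, 0.205) or control 2 (0.75, 0.241), any of the passage 1 RANK-Fc tumours 1 to 3 (0.68, 0.67 and 0.67, adjusted p = 0.0535, 0.0509 and 0.0596) or both-passage tumour 1 (0.68, 0.0589). It also ended with median centring (0.49, adjusted p = 0.214).

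Acsl4 encodes an acyl-CoA synthetase that prefers arachidonate and other polyunsaturated fatty acids. It measured 13.94 and 14.36 in the passage 1 controls and 14.05, 14.24 and 13.98 in the passage 1 RANK-Fc tumours. The passage 2 levels were 12.65 and 12.37 in controls, 13.05, 12.65 and 13.89 in current-only, 12.86, 13.56 and 13.13 in earlier-only, and 13.09, 12.91 and 13.79 in both-passage tumours. Every tumour of passage 2 was lower than every tumour of passage 1, narrowly so for current-only tumour 3 and both-passage tumour 3. The difference was -1.28 ± 0.20 (SE; adjusted p = 0.00136, limma), and between controls alone -1.65 ± 0.30 (adjusted p = 0.0132).

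Thrsp encodes the Spot 14 protein, a promoter of fatty acid synthesis in liver and lactating mammary gland. Its levels were 14.50 and 14.40 in the passage 1 controls, 15.04, 14.23 and 14.73 under RANK-Fc in passage 1, 15.50 and 15.44 in the passage 2 controls, 14.94, 15.99 and 15.32 in current-only, 14.50, 14.81 and 15.17 in earlier-only, and 15.89, 15.09 and 15.67 in both-passage tumours. The groups of the contrast overlapped through passage 1 RANK-Fc tumour 1, which was above current-only tumour 1, and the earlier-only tumours lay largely within the passage 1 range. The difference was 0.85 ± 0.21 (SE; adjusted p = 0.0205, limma). The call ended without passage 1 control 1 (0.81, adjusted p = 0.0787), control 2 (0.89, 0.0573) or RANK-Fc tumour 2 (0.76, 0.0530), and without passage 2 control 1 (0.90, 0.0568) or control 2 (0.81, 0.0910), the direction staying the same.

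Acaca encodes acetyl-CoA carboxylase 1, which makes malonyl-CoA in the committed step of fatty acid synthesis. It measured 11.74 and 11.41 in the passage 1 controls, 12.24, 11.65 and 11.79 in the passage 1 RANK-Fc tumours, 12.11 and 12.08 in the passage 2 controls, 12.24, 12.68 and 13.15 in current-only, 11.72, 11.96 and 11.98 in earlier-only, and 12.21, 12.43 and 12.08 in both-passage tumours. Current-only tumours were the highest group, and passage 1 RANK-Fc tumour 1 was above both passage 2 controls. The difference between passages was 0.61 ± 0.16 (SE; adjusted p = 0.0293, limma), with 0.40 and 0.27 at its other 2 probes, neither called over probes. With median centring it was 0.48 (adjusted p = 0.0642). The call also ended without passage 1 control 1 (0.66, adjusted p = 0.0659), control 2 (0.55, 0.111), RANK-Fc tumour 2 (0.56, 0.0732) or tumour 3 (0.59, 0.0515), and without passage 2 control 1 (0.67, 0.0613) or control 2 (0.55, 0.129).

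Dgat2 encodes an enzyme of the last step of triglyceride synthesis that is abundant in fat tissue. Its levels were 11.89 and 9.53 in the passage 1 controls, 10.89, 9.44 and 9.37 under RANK-Fc in passage 1, 9.42 and 8.56 in the passage 2 controls, 9.08, 9.30 and 8.74 in current-only, 8.78, 8.44 and 9.49 in earlier-only, and 9.12, 8.81 and 9.57 in both-passage tumours. Passage 1 control 1 and RANK-Fc tumour 1 stood apart from the other 14 tumours, whose levels lay between 8.44 and 9.57. These were also the tumours with the highest mean of 13 adipocyte markers, 10.37 and 9.60. The difference was -1.28 ± 0.33 (SE; adjusted p = 0.0266, limma). Without both of these tumours, a choice made after their marker levels were seen, it was -0.58 (adjusted p = 0.278). It also missed the threshold without passage 1 control 1 alone (-0.86, adjusted p = 0.118), RANK-Fc tumour 1 (-1.10, 0.0825) or tumour 2 (-1.30, 0.0525), and without passage 2 control 1 (-1.27, 0.0873) or control 2 (-1.29, 0.0919).

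**Figure D2:**
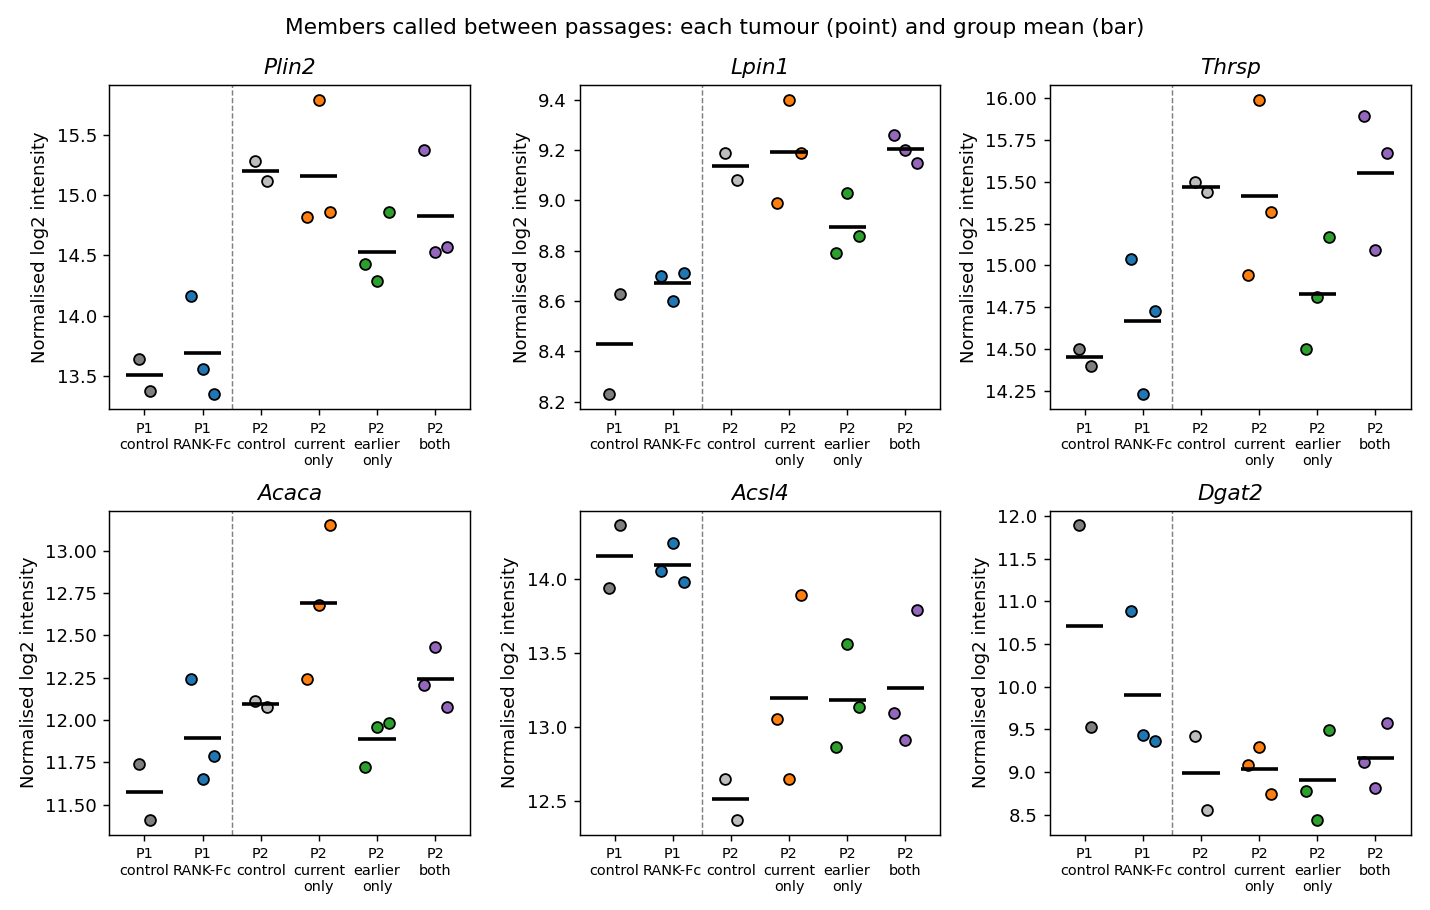
Normalised log2 intensity (y axis) of the 6 members called between passages in each of the 16 tumours (points) by group (x axis), with group means as bars and a dashed line between passages. The 11 passage 2 tumours lie above all 5 of passage 1 for Plin2 and Lpin1 and below them for Acsl4, while for Dgat2 the highest points are 2 tumours of passage 1.

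The separation of all 11 passage 2 tumours from the 5 of passage 1 was seen for Plin2, Lpin1 and Acsl4, 3 of 34 members (8.82%), beside 3.22% of all genes. Within the 10 tumours of the contrast the same 3 members did not overlap, beside 14.0% of all genes, so that count was not above the background. Between the controls alone (2 against 2), Plin2, Lpin1 and Acsl4 were called (8.82% of the members) beside 3.34% of all genes. At an unadjusted p under 0.05 it was 9 of 34, beside 15.5%. A test for any difference among the 6 groups called Plin2 (adjusted p = 0.00522, limma), Scd2 (0.0219), Acsl4 (0.0252) and Lpin1 (0.0261), which is 4 of 34 (11.8%) beside 4.83% of all genes, and 12 of 34 at an unadjusted p under 0.05 beside 20.4%. Few tumours decided these counts. Between controls, Acsl4 was no longer called without passage 1 control 1 (-1.62, adjusted p = 0.121), passage 1 control 2 (-1.68, 0.0777) or passage 2 control 2 (-1.28, 0.244), and Plin2 without passage 1 control 1 (1.60, 0.0711) or passage 2 control 2 (1.48, 0.140). The count there was 0 without passage 1 control 1 or passage 2 control 2, and 5 without current-only tumour 3, when Fads1 and Mgll passed too. Over all 14147 genes the calls between controls were 63, 11 and 591 in these 3 fits, so the count moved over all genes as well. The test among groups called Plin2 alone without passage 1 control 1 or both-passage tumour 1, and Plin2 and Scd2 without passage 1 RANK-Fc tumour 1 or 2 or passage 2 control 2. Without both passage 1 control 1 and RANK-Fc tumour 1, the control comparison and the test among groups called 0 members. The averaged passage contrast then called 5 members, beside 727 of all 14147 genes, which were Acaca, Acsl4, Lpin1, Plin2 and Lpl, the gene of lipoprotein lipase.

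By role, the genes of de novo synthesis were all higher in passage 2 (8 of 8, median 0.48, Acaca and Thrsp called), which became 6 of 8 with median centring (median 0.38). The uncalled members of this class were the acetyl-CoA carboxylase 2 gene Acacb at 0.81 ± 0.38 (SE), the acetyl-CoA synthetase gene Acss2 at 0.57 ± 0.27, the ATP citrate lyase gene Acly at 0.38 ± 0.17, the citrate carrier gene Slc25a1 at 0.25 ± 0.12, the fatty acid synthase gene Fasn at 0.12 ± 0.20 and the malic enzyme gene Me1 at 0.04 ± 0.15. Of the desaturation and elongation genes 3 of 7 were higher (median -0.02), and Scd1, a stearoyl-CoA desaturase gene, had the widest difference at 1.08 ± 0.45 (adjusted p = 0.144, limma). Uptake and activation genes were higher in 3 of 7, with Acsl4 called lower. Esterification genes were higher in 5 of 6, with Lpin1 called higher and Dgat2 lower. Droplet genes were higher in 5 of 6, with Plin2 called. Cidea, which encodes a droplet protein that promotes milk fat secretion, was at 0.80 ± 0.30 (adjusted p = 0.113), and the milk fat globule genes Btn1a1 and Xdh at 0.30 ± 0.15 and 0.13 ± 0.17. Of the milk fat globule genes, then, the coat gene Plin2 passed the test and Btn1a1 and Xdh did not.

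Promoter stretches were set beside the values for those called members that have an entry in the RefSeq promoter table of GRCm38.p6, since 4 of them moved up and 1 down between the same tumours. Each line holds the 150 bases before the annotated start, 5′ to 3′ on the gene's strand, with CCAAT, the NF-Y box, or its reverse complement in capitals.
Plin2 (chr4:86670060-86670209, minus strand): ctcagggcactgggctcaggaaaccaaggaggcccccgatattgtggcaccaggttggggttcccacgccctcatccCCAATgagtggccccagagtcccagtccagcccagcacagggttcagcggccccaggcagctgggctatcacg
Lpin1 (chr12:16610967-16611116, minus strand): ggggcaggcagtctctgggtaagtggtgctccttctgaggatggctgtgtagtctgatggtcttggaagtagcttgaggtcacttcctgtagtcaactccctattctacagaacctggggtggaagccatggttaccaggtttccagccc
Thrsp (chr7:97417551-97417700, minus strand): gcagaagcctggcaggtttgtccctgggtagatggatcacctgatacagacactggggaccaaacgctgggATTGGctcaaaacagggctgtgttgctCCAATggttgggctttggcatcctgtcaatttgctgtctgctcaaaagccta
Acaca (chr11:84195288-84195437, plus strand): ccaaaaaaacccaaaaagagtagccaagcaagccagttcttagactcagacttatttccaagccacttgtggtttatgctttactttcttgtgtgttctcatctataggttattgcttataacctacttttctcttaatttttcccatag
Acsl4 (chrX:142390536-142390685, minus strand): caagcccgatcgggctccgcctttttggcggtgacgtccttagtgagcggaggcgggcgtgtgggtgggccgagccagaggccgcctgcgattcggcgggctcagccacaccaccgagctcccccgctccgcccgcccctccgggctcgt

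Among these stretches the CCAAT letters were present in Plin2, starting 73 bases before the start, and at 2 places in Thrsp, 79 and 52 bases before it. They were not in the stretches of Lpin1, Acaca or Acsl4, which says nothing about the factor. Plin2 also held CACGTG, the E-box, from 4 bases before the start and running past it. Windows of 300 bases (250 before and 50 after a start) were found for 24 of the 34 members, 31 windows in all, and both strands were searched. CCAAT was in 54.8% of the members' windows and in 37.4% of all 32851 windows. CACGTG was in 12.9% of the members' windows against 7.15%, the STAT5 letters TTCNNNGAA in 3.23% against 8.30%, and the sterol response letters TCACNCCAC in 3.23% against 1.24%. The STAT5 match was in Agpat1 and the sterol response match in Acsl1. Each is a match of letters and was not tested as a site.

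The response to RANK-Fc was measured in 3 contrasts that share no tumour: RANK-Fc against control in passage 1, current-only against control in passage 2, and both-passage against earlier-only, in which treatment continued or stopped. The average of these 3 called no member by limma, beside 0% of all genes. At an unadjusted p under 0.05 there were 10 of 34 members (29.4%), beside 6.68% of all genes, and 9 of the 10 were higher under treatment, beside 3.42% of all genes in that direction. The members were higher in 28 of 34 (82.4%, against 52.1% of all genes), with a median difference of 0.20 against 0.00. None passed the threshold, and the differences were uneven by role. The median was 0.37 for de novo synthesis (8 of 8 higher), 0.23 for desaturation and elongation (6 of 7) and 0.20 for uptake and activation (7 of 7). It was 0.12 for droplet genes (4 of 6) and 0.06 for esterification (3 of 6).

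In the averaged contrast 7 of 7 uptake genes were on the treated side (median 0.20), a count that went down to 5 of 7 without single tumours (medians 0.14 to 0.40). Adipocyte markers were higher in 12 of 13 there (median 0.14), with none called, and their part was not tested. The separate contrasts differed for uptake genes. In passage 1, 2 of 7 were higher under RANK-Fc (median -0.13), against 7 of 7 in current-only tumours (0.52). For continued against stopped treatment it was 5 of 7 (0.15). All 8 de novo synthesis genes were higher in the averaged contrast (median 0.37), in passage 1 (0.26), in current-only tumours (0.29) and in continued against stopped treatment (0.51). For the average, 8 of 8 were higher in each of the other settings run, median centring included, and without any 1 tumour (medians 0.32 to 0.42). In the separate contrasts the count depended more on single tumours. In passage 1 it was 4 of 8 (median -0.02) without RANK-Fc tumour 1 and 6 of 8 (0.19) without control 2. In current-only tumours it was 6 of 8 without passage 2 control 1 (0.31) or current-only tumour 2 (0.47), the median was 0.16 without current-only tumour 3, and in continued against stopped treatment it was 7 or 8 in each of the 16 fits. The averaged differences were 0.75 ± 0.29 (SE) for Acacb, 0.45 ± 0.20 for Acss2, 0.42 ± 0.12 for Acaca, 0.38 ± 0.13 for Acly, 0.37 ± 0.16 for Thrsp, 0.24 ± 0.15 for Fasn, 0.20 ± 0.11 for Me1 and 0.14 ± 0.09 for Slc25a1. Their adjusted p lay at 0.674 or above (limma).

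**Figure D3:**
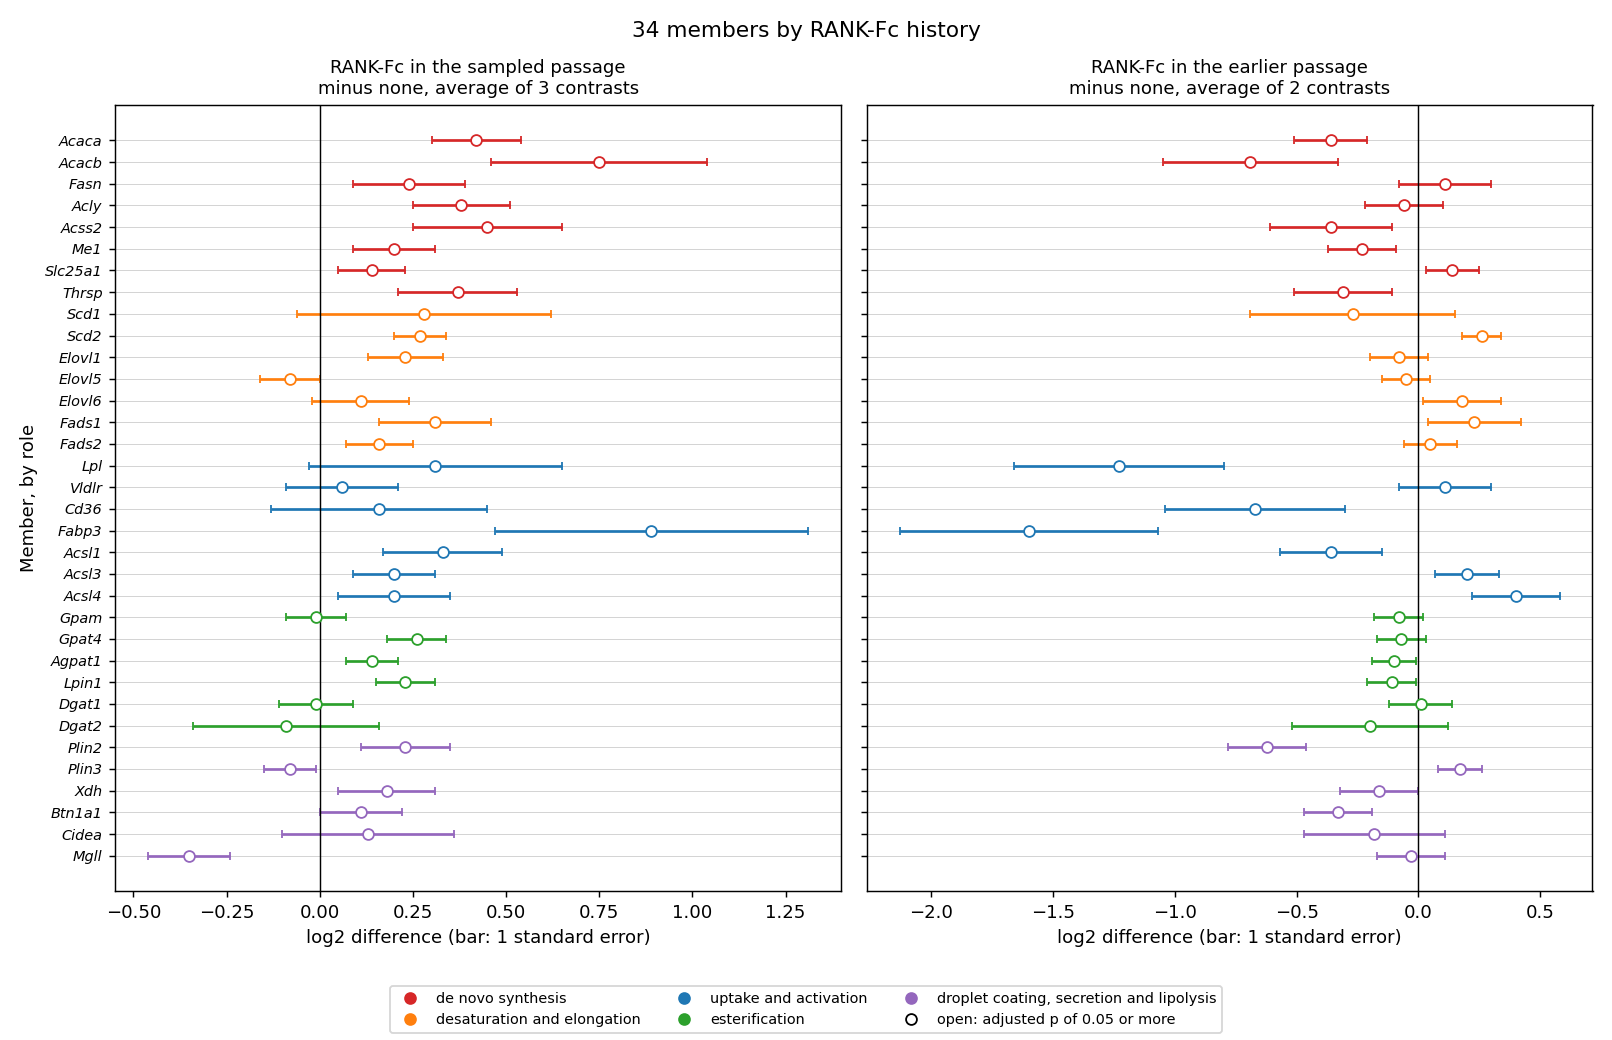
Log2 differences (x axes) of the 34 members (y axis, coloured by role) for RANK-Fc in the sampled passage against none (left, average of 3 contrasts) and for RANK-Fc in the earlier passage against none (right, average of 2 contrasts), with bars of 1 standard error and different x ranges. All points are open, since no member passed, and all 8 de novo synthesis genes lie right of 0 on the left and 6 of them left of 0 on the right.

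Among passage 1 tumours, RANK-Fc against control called 0 members (0% of all genes), with 2 of 34 at an unadjusted p under 0.05 beside 1.61% of all genes. The members' median was 0.12, against -0.01, and 25 were higher. The median was 0.02 without RANK-Fc tumour 1 and 0.06 without control 2, and 0.24 with log ratios alone. Adipocyte markers were higher in 0 of 13 (median -0.59), with none called, and their part was not tested. The stearoyl-CoA desaturase gene Scd2 was at 0.34 ± 0.12 (SE) and the acyl-CoA synthetase gene Acsl3 at 0.42 ± 0.19. For both, every treated tumour was above every control, as it was for Slc25a1, Elovl6, Agpat1 and Gpat4. The share of all genes that separated in this way was not counted.

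In passage 2, current-only tumours against controls called 0 members (0% of all genes), with 6 of 34 at an unadjusted p under 0.05 (17.6%) beside 3.99% of all genes. The median was 0.26, against 0.02, and 29 of 34 were higher. Current-only tumour 3 was the highest of all 16 tumours for 11 of 34 members, and it had raised fibroblast markers (a mean of 12.47 over 9 genes) and raised muscle markers (8.72 over 3 measured genes). Against controls, current-only tumours had higher estimates for 9 of 9 fibroblast markers (median 0.76), 9 of 9 macrophage markers (0.44), 7 of 8 basal markers (0.39), 10 of 10 markers of T and NK cells (0.09) and 11 of 13 adipocyte markers (0.15), with none called. Their part in the result was not tested. Without that tumour alone the members' median was 0.12, and 0.15 when the 2 passage 1 tumours rich in adipocyte markers were left out as well.

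Fabp3, a fatty acid binding protein gene expressed in heart, muscle and lactating mammary gland, showed the widest range of group means among the members, 2.64. Its levels were 6.94 and 7.39 in the passage 1 controls, 8.91, 7.13 and 7.37 under RANK-Fc in passage 1, 8.29 and 7.86 in the passage 2 controls, 7.99, 9.80 and 11.61 in current-only, 7.29, 7.27 and 7.31 in earlier-only, and 7.44, 7.86 and 7.56 in both-passage tumours. The high values were those of current-only tumours 2 and 3 and passage 1 RANK-Fc tumour 1, and the other 13 tumours lay at 8.29 or below. The averaged difference under RANK-Fc was 0.89 ± 0.42 (SE), and in current-only tumours 1.72 ± 0.74 (adjusted p = 1, limma), with 1.53 at its other probe. Earlier-only tumour 1, which had the highest muscle marker mean of all (9.71), was at 7.29. Current-only tumour 3, at 11.61, had the next highest muscle marker mean (8.72). The part of muscle in these levels was not tested.

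Continued against stopped treatment (both-passage against earlier-only, 3 against 3) called 0 members, beside 0% of all genes, and had 7 of 34 at an unadjusted p under 0.05 (20.6%) beside 9.95%. All 7 were higher, beside 4.62% of all genes in that direction. In 9 members (26.5%) the groups did not overlap, beside 9.66% of all genes, and in each of the 9 every both-passage tumour was the higher, beside 4.36%. These were Acaca, Acacb, Acly, Acss2 and Me1 of de novo synthesis, with Scd2, Fabp3, Acsl1 and Lpin1. The median was 0.25, against 0.00, and 26 of 34 were higher. Adipocyte markers were higher in 13 of 13 in this contrast (median 0.87). Macrophage markers were higher in 0 of 9 (-0.34) and fibroblast markers in 1 of 9 (-0.37). None of these markers was called, and their part was not tested.

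Acacb, listed here with the de novo synthesis genes, encodes the carboxylase whose malonyl-CoA restrains fatty acid oxidation. It measured 9.14, 9.27 and 9.50 in earlier-only and 10.64, 9.50 and 10.96 in both-passage tumours, a contrast of 0.99 ± 0.46 (SE; adjusted p = 0.506, limma). The highest earlier-only and the lowest both-passage value differ only beyond the printed digits. Its remaining values were 9.85 and 9.36 in the passage 1 controls, 10.62, 8.70 and 10.19 under RANK-Fc in passage 1, 10.07 and 9.95 in the passage 2 controls, and 10.60, 10.71 and 11.53 in current-only tumours. All current-only tumours were above both passage 2 controls, the earlier-only tumours were below them, and the other probe gave 0.28 for continued against stopped treatment.

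Acly, which makes cytosolic acetyl-CoA from citrate, was at 13.98, 13.96 and 13.68 in earlier-only and 14.61, 14.16 and 14.66 in both-passage tumours (0.60 ± 0.20, SE; 0.23 at its other probe). Acss2, which makes acetyl-CoA from acetate, was at 9.16, 9.80 and 9.71 against 10.44, 9.91 and 10.85 (0.80 ± 0.32; 0.44 at its other probe). In both genes the groups separated without overlap, and the second probe gave a smaller difference in the same direction. Thrsp, at 0.69 ± 0.25, overlapped through both-passage tumour 2, and Fasn at 0.42 ± 0.24 and Slc25a1 at 0.01 ± 0.14 overlapped as well.

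Scd2 encodes a stearoyl-CoA desaturase and had the smallest spread within groups of all members, a pooled SD of 0.12. Its levels were 13.88 and 13.84 in the passage 1 controls, 14.30, 14.19 and 14.14 under RANK-Fc in passage 1, 14.07 and 14.29 in the passage 2 controls, 14.27, 14.15 and 14.41 in current-only, 14.18, 14.21 and 14.45 in earlier-only, and 14.70, 14.59 and 14.83 in both-passage tumours. The both-passage tumours were the highest 3 of the 16 and the passage 1 controls the lowest 2. The contrast with stopped treatment was 0.41 ± 0.11 (SE; adjusted p = 0.228, limma) and that with the passage 2 controls 0.49 ± 0.12 (adjusted p = 0.229), so its call rests on the test across all groups. Scd1 measured 13.58 and 12.05 in the passage 1 controls, 13.65, 11.19 and 12.40 under RANK-Fc in passage 1, 13.45 and 13.63 in the passage 2 controls, 13.19, 13.52 and 14.60 in current-only, 12.74, 12.84 and 13.59 in earlier-only, and 14.85, 13.74 and 13.42 in both-passage tumours. Its pooled SD was 0.83, and its passage 1 tumours alone spanned the values from 11.19 to 13.65.

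**Figure D4:**
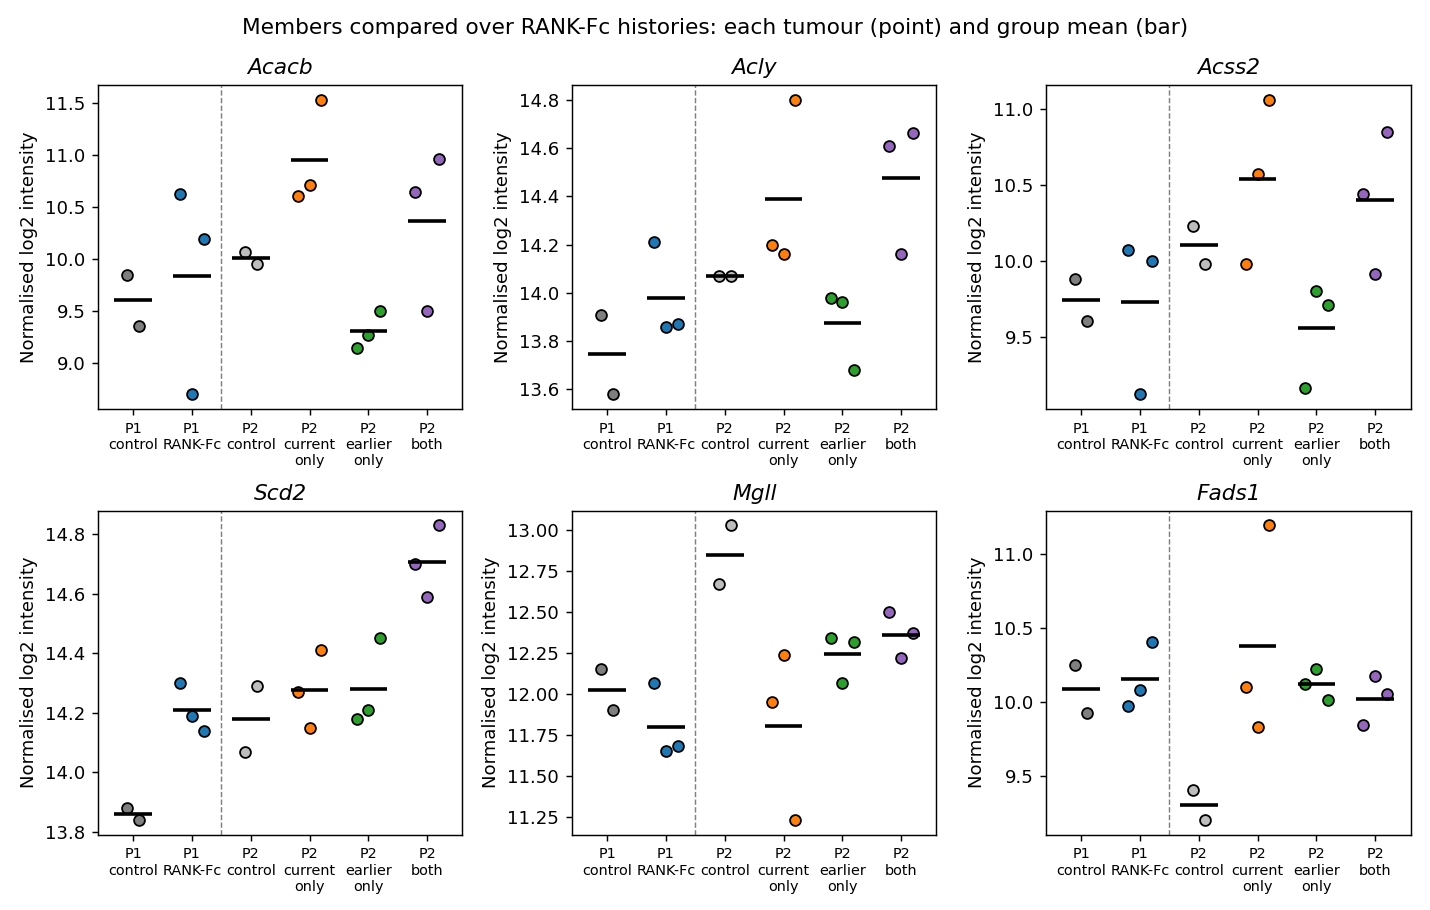
Normalised log2 intensity (y axis) of Acacb, Acly, Acss2, Scd2, Mgll and Fads1 in each of the 16 tumours (points) by group (x axis), with group means as bars and a dashed line between passages. Both-passage tumours lie above earlier-only tumours for Acacb, Acly, Acss2 and Scd2, and the passage 2 controls are the highest group for Mgll and the lowest for Fads1.

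Mgll encodes monoglyceride lipase, which completes the breakdown of triglyceride. It had the smallest p of any member in a RANK-Fc contrast, and measured 12.67 and 13.03 in the passage 2 controls against 11.95, 12.24 and 11.23 in current-only tumours. The difference was -0.99 ± 0.20 (SE; unadjusted p = 0.000302, adjusted p = 0.855, limma), and its other probes gave -0.79 and -0.69. The remaining tumours measured 12.34, 12.07 and 12.32 in earlier-only, 12.50, 12.22 and 12.37 in both-passage, 12.15 and 11.90 in the passage 1 controls and 12.07, 11.65 and 11.68 under RANK-Fc in passage 1. The passage 2 controls were therefore above the other 14 tumours. Fads1, a fatty acid desaturase gene of polyunsaturated fat synthesis, had the opposite order, at 9.40 and 9.20 in the passage 2 controls against 10.10, 9.83 and 11.19 in current-only tumours (1.00 ± 0.27, SE; adjusted p = 1, limma). It measured 10.12, 10.22 and 10.01 in earlier-only, 9.84, 10.17 and 10.05 in both-passage, 10.25 and 9.92 in passage 1 control and 9.97, 10.08 and 10.40 in passage 1 RANK-Fc tumours, all above both passage 2 controls.

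The 3 treated groups of passage 2 share these 2 control tumours, so a high or low control moves all 3 contrasts. Against them Mgll was at -0.99 in current-only, -0.60 in earlier-only and -0.46 in both-passage tumours, and Fads1 at 1.00, 0.80 and 0.66. Acsl4, called lower in the passage 2 controls than in those of passage 1, was at 0.63, 0.68 and 0.76 (unadjusted p = 0.0316, 0.0222 and 0.0156, limma). No member was called in any of the 3 (limma). Gpat4, which encodes a glycerol-3-phosphate acyltransferase of the lactating gland, had an averaged difference under current RANK-Fc of 0.26 ± 0.08 (SE; adjusted p = 0.674). It measured 12.29 and 12.16 in the passage 1 controls, 12.40, 12.65 and 12.32 under RANK-Fc in passage 1, 12.20 and 12.35 in the passage 2 controls, 12.45, 12.64 and 12.47 in current-only, 12.11, 12.06 and 12.42 in earlier-only and 12.37, 12.39 and 12.70 in both-passage tumours. In passage 1 and in current-only tumours each treated tumour was above both controls, and both-passage overlapped with earlier-only tumours. How many of all genes separated from the controls in this way was not counted.

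Treatment in the earlier passage alone, against the passage 2 controls, called 0 members beside 0.00707% of all genes (1 gene), with 6 of 34 at an unadjusted p under 0.05 beside 7.68%. The median was -0.20, against 0.00, and 10 of 34 were higher. Of de novo synthesis genes 1 of 8 was higher (median -0.22, or 2 of 8 and -0.08 with median centring) and of esterification genes 0 of 6 (3 of 6 with median centring). In earlier-only tumours 0 of 13 adipocyte markers (median -0.51) and 0 of 10 markers of T and NK cells (-0.47) were higher than in controls, with none called, and their part was not tested. Plin2 was at -0.71 ± 0.22 (SE; adjusted p = 0.351, limma) and Thrsp at -0.62 ± 0.28. For both, the 3 earlier-only tumours were below both controls, as they were for other members, Acaca and Acly among them. The share of all genes with such a separation was not counted. Treatment in both passages against the controls also called 0 members, beside 0.0707% of all genes (10 genes), with 4 of 34 at an unadjusted p under 0.05 beside 9.00%. Its median was 0.09, and 8 of 8 de novo synthesis genes were higher (median 0.24, or 0.51 with median centring). That count was 5 of 8 without both-passage tumour 3 (median 0.08) or passage 2 control 1 (0.19), and 6 of 8 without both-passage tumour 1 (0.17). Adipocyte markers were higher in both-passage tumours than in controls (13 of 13, median 0.41) while 0 of 9 macrophage markers (-0.47) and 1 of 10 markers of T and NK cells (-0.63) were higher, with none called, and their part was not tested.

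The averaged contrast for earlier treatment (earlier-only against control and both-passage against current-only) called 0 members beside 0.382% of all genes (54 genes), with 7 of 34 at an unadjusted p under 0.05 beside 15.6%, a share near the background. The median was -0.09 and became 0.09 with median centring, where the median of all genes was 0.15. In the same contrast 0 of 9 macrophage markers (median -0.58), 0 of 10 markers of T and NK cells (-0.61) and 0 of 9 fibroblast markers (-0.22) were higher, with none called, and their part was not tested. Plin2 had the smallest p, at -0.62 ± 0.16 (SE; adjusted p = 0.104, limma), and Fabp3 was at -1.60 ± 0.53. Without current-only tumour 1, 1 member, Fabp3, passed in this contrast beside 270 of all 14147 genes. The interaction of earlier and current treatment called 0 members beside 0% of all genes, with 4 of 34 at an unadjusted p under 0.05 beside 6.76%. Mgll was at 1.14 ± 0.26 (adjusted p = 0.507) and Fads1 at -1.14 ± 0.34 (adjusted p = 0.579).

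Across the 34 members, 15 had their highest group mean in current-only and 7 in both-passage tumours, while 13 had their lowest in the passage 1 controls and 9 in earlier-only tumours. The median deviation of the members from their own means was highest in current-only tumour 3 (0.42) and tumour 2 (0.17) and lowest in passage 1 RANK-Fc tumour 2 (-0.26) and control 2 (-0.25). Passage 1 RANK-Fc tumour 2 was the lowest of the 16 for 7 members. The pooled SD within groups ran from 0.12 for Scd2 to 0.93 for Fabp3 with a median of 0.32, and the range of group means from 0.26 for Agpat1 to 2.64 for Fabp3 with a median of 0.76. The group means lay within 0.45 of each other for 11 members: Elovl1, Elovl5, Fads2, Vldlr, Gpam, Gpat4, Agpat1, Dgat1, Plin3, Xdh and Btn1a1.

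The members not described by tumour are given here in the contrast where their p was smallest, and none was called (limma). Under continued against stopped treatment, the long-chain acyl-CoA synthetase gene Acsl1 was at 0.60 ± 0.26 (SE). In the averaged contrast for current RANK-Fc, Me1 was at 0.20 ± 0.11 and the elongase gene Elovl1 at 0.23 ± 0.10. Current-only tumours against controls gave 0.29 ± 0.16 for the desaturase gene Fads2 and 0.37 ± 0.23 for Xdh, and passage 1 RANK-Fc against control gave 0.24 ± 0.13 for the acyltransferase gene Agpat1. These 6 were on the treated side. Between passages, the elongase genes Elovl5 and Elovl6, which extend unsaturated and saturated chains, were at -0.27 ± 0.11 and -0.38 ± 0.17. Between the controls of the passages, Vldlr, a lipoprotein receptor gene, was at -0.44 ± 0.30 and the acyltransferase gene Dgat1 at 0.47 ± 0.20. In the averaged contrast for earlier treatment, Lpl, which releases fatty acids from blood lipoproteins, was at -1.23 ± 0.43, Cd36 at -0.67 ± 0.37, Btn1a1 at -0.33 ± 0.14 and the droplet coat gene Plin3 at 0.17 ± 0.09. Acsl3 was at 0.43 ± 0.19 in earlier-only tumours against controls, and the acyltransferase gene Gpam at 0.44 ± 0.18 in the interaction.

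Lpl, Cd36, a fatty acid transporter gene, and Dgat2 are among the members also strongly expressed in adipocytes. Fewer adipocytes in a piece or less RNA in each adipocyte cannot be told apart in these bulk samples. The mean of the adipocyte markers (13 of 14 measured, Lep being above background in 1 of 16 tumours, and Pparg also among the regulators below) was 10.37 and 8.15 in the passage 1 controls, 9.60, 8.02 and 8.23 under RANK-Fc in passage 1, 8.79 and 7.36 in the passage 2 controls, 8.29, 8.43 and 7.36 in current-only, 7.34, 7.65 and 8.31 in earlier-only, and 8.41, 8.02 and 9.11 in both-passage tumours. The list median was -0.88 between passages (12 of 13 lower) and 0.87 for continued against stopped treatment (13 of 13 higher), with no marker called in either. Between passages fibroblast markers were higher in 2 of 9 (median -0.80) and markers of T and NK cells in 10 of 10 (0.27). For continued against stopped treatment macrophage markers were higher in 0 of 9 (-0.34) and fibroblast markers in 1 of 9 (-0.37), and none of these was called. Epithelial markers did hold calls between passages. Of 10 luminal markers, Cldn4 (0.93 ± 0.25, SE; adjusted p = 0.0275, limma) and Elf3 (0.51 ± 0.11; 0.0122) were called higher. Of 8 basal markers, Krt17 was called higher (1.26 ± 0.31; 0.02) and Oxtr lower (-1.85 ± 0.23; 0.000474). Of all genes, 4.21% were called higher and 7.89% lower. Lpl was highest in passage 1 control 1 (11.92) and current-only tumour 3 (11.85), and Cd36 in passage 1 control 1 (9.03) and both-passage tumour 3 (8.25). Current-only tumour 3 had an adipocyte mean of 7.36, near the lowest. The part of these lists in the differences of the members, between passages or between continued and stopped treatment, was not tested beyond the fits without single tumours. For Plin2, whose 2 highest passage 1 levels were those of the tumours richest in adipocyte markers, the difference between passages was 1.58 without them (adjusted p = 0.00516, limma). For Lpin1 it was 0.47 (adjusted p = 0.0453), for Acsl4 -1.14 (0.0298), for Acaca 0.79 (0.0437) and for Thrsp 0.92 (0.0934). When current-only tumour 3 was left out too, Plin2 (1.61, 0.0130) and Acsl4 (-1.36, 0.0120) passed, and Lpin1 (0.46, 0.0927), Acaca (0.60, 0.0554) and Thrsp (0.90, 0.160) did not.

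**Figure D5:**
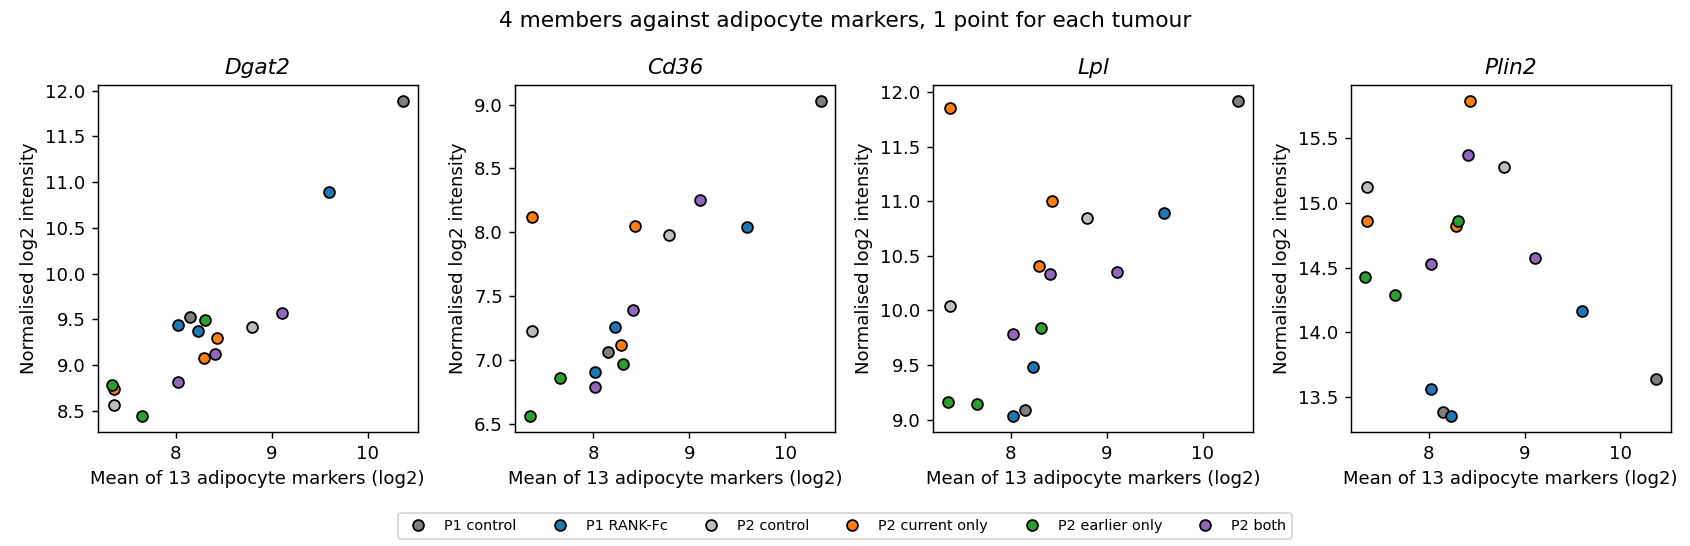
Normalised log2 intensity (y axes) of Dgat2, Cd36, Lpl and Plin2 against the mean of 13 adipocyte markers (x axes, log2), with 1 point for each tumour, coloured by group. Passage 1 control 1 (10.37) and RANK-Fc tumour 1 (9.60) lie at the right, where Dgat2 is highest (11.89 and 10.89) and Plin2 is at 13.64 and 14.16, below every tumour of passage 2.

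Genes upstream of the pathway moved with passage in part. Of 29 lipogenic regulators, 4 were called higher in passage 2 and 2 lower by limma in the same averaged contrast (list median 0.02), beside 4.21% and 7.89% of all genes. Higher were Stat5a, the prolactin-activated factor (0.72 ± 0.20, SE; adjusted p = 0.0324), the alveolar factor gene Elf5 (0.57 ± 0.14; 0.0210), the coactivator gene Ppargc1b (0.42 ± 0.08; 0.00431) and the nuclear receptor gene Rxra (0.38 ± 0.09; 0.0202). Lower were the coactivator gene Ppargc1a (-1.04 ± 0.14; 0.000818) and Prkaa1, which encodes a catalytic subunit of AMP-activated kinase (-0.36 ± 0.10; 0.0343). Srebf1, the SREBP1 gene, was at -0.17 ± 0.21 between passages and -0.18 ± 0.15 under current RANK-Fc, neither called. Insig1, a target of SREBP factors that holds them in check, was at 0.54 ± 0.10 under current RANK-Fc (unadjusted p = 0.000186, adjusted p = 0.33). In the contrasts for RANK-Fc and for earlier treatment 0 of the 29 were called.

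Neighbouring steps of fat metabolism gave calls in the passage contrast on both sides. Of 54 other fatty acid and triglyceride genes measured (62 listed), 7 were higher and 2 lower. Abhd5, which encodes the coactivator of adipose triglyceride lipase, was at 1.17 ± 0.20 (SE; adjusted p = 0.00295, limma), and Olah, the thioesterase gene that gives milk its medium-chain fatty acids, at 2.47 ± 0.64 (0.0262). Elovl4, Elovl7, Slc27a1, Aacs and Hacd1 were the other higher genes, and Mogat1 (-0.74 ± 0.15) and Hacd3 (-0.38 ± 0.10) the lower. The list for NADPH and citrate supply held 21 measured genes, not all of which raise that supply. The pentose phosphate genes G6pdx (0.36 ± 0.10) and Pgd (0.65 ± 0.12) and the glucose transporter gene Slc2a1 (0.91 ± 0.18) were higher. So was Pdk1 (0.97 ± 0.11), the gene of a kinase that acts against pyruvate dehydrogenase, while Me3 was lower (-1.05 ± 0.15). Of 22 fatty acid oxidation genes, 6 were higher (Ucp2, Ucp3, Acadl, Cpt1a, Hadha and Slc25a20). Among milk protein genes 7 of 17 were higher and none lower, with the casein genes Csn2 at 4.70 ± 1.03 and Csn1s1 at 3.59 ± 0.68. Olah is among these 7 and was also counted with the other fatty acid and triglyceride genes. Cholesterol synthesis genes had 1 of 20 called (Mvd, 0.51 ± 0.11). These counts stand beside 4.21% of all genes called higher and 7.89% called lower.

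Under current RANK-Fc none of these list genes was called (limma, averaged contrast). Their medians were 0.06 for the other fatty acid and triglyceride genes (38 of 54 higher), 0.06 for NADPH and citrate supply (16 of 21), 0.02 for fatty acid oxidation (12 of 22) and 0.29 for cholesterol synthesis (20 of 20 higher). In the contrast for earlier treatment, cholesterol synthesis genes were higher in 19 of 20 (median 0.20) and de novo fatty acid synthesis genes in 2 of 8 (median -0.27, or 3 of 8 and -0.08 with median centring). The difference between the lists was not tested. Milk protein genes were higher in 15 of 17 under current RANK-Fc (median 0.49) and in 0 of 17 after earlier treatment (median -0.48), with none called.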

How the data were processed

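RNA of 16 tumours was measured on 8 two-colour Agilent arrays of 62976 spots. The deposited scanner files hold spot and background intensities on a linear scale with quality marks coded per spot (other values), written by Agilent Feature Extraction 10.7.3.1, per the submitters' processing notes. A deposited normalised table with 8 columns of values that could not be matched to single samples was not used.

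Median intensities were background-corrected in R 4.3.3 with limma 3.58.1 (normexp, offset 50), normalised by loess within arrays and Aquantile between them, with control spots at weight 0 and outlier spots (239 to 337 per array) left out. Probes well above background in all tumours of at least 1 group were kept, named through their RefSeq accession, and the brightest probe stood for its gene (14147 genes; 25.8% had several). One model over the 6 groups with a dye term took the array as a block with an intraspot correlation of 0.218 (0.416 before correction for small-sample bias), followed by eBayes (9 residual degrees of freedom). This generalised least squares fit replaced limma's separate-channel function, which takes no missing spots, and was checked on simulated data. Adjusted p-values are Benjamini-Hochberg over all genes. The number of arrays limits the precision.

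Values per tumour were given for members with an adjusted p under 0.05 or an unadjusted p under 0.01 in any comparison, and for the member of each role with the widest range of group means. Acly and Acss2 were added after their values were seen. The members and lists were chosen with earlier results of these data known. The 13 other settings, the 16 fits without 1 tumour and 2 added fits without marker-rich tumours are described under the dependence on processing. One gene of the fatty acid oxidation list is not reported here.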

Additional observations from a re-analysis of the deposited data

How the results depend on the processing

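No paired analysis was possible because the replicate numbers were given in accession order and tie no tumour to another. Of 1419 values under another setting, 1336 counted as the same, and no called value changed sign. For a single member, the same meant an unchanged direction and side of the threshold. For a count it meant a value within 1.5 times, and for a median a shift under 0.136, whatever its sign. Medians near 0 with no call did change sign: that of earlier treatment averaged went from -0.09 to 0.09 with median centring, and that of the interaction ran from -0.09 to 0.12 over the settings. With log ratios alone, a fit that leaves few residual degrees of freedom, 0 members were called between passages (averaged), between the controls of the passages and among the 6 groups, where the reported counts are 6, 3 and 4 (7, 4 and 5 at most in the other settings). Over all genes the fit on log ratios also called 0 between passages and 0 between the controls. Acaca and Lpin1 (controls) lost their calls with median centring and when groups were compared alone, and Dgat2 without a dye term (-1.28, adjusted p = 0.0895). Median centring gave 2 members among the 6 groups, and moved the members' median to 0.35 in both-passage tumours against controls, -0.05 in earlier-only tumours against controls and 0.03 between the controls of the passages. The fits without the tumours rich in adipocyte markers, with or without the current-only tumour with raised muscle markers, both chosen after seeing the data, called 0 members between controls and 0 among the groups. Leaving out 1 tumour at a time, the members called ranged from 3 to 8 between passages, from 0 to 5 between controls, from 1 to 6 among the groups and from 0 to 1 for earlier treatment averaged. In the other RANK-Fc contrasts the count of members was 0 in each of these fits. Over all genes, the fits that kept 2 or more tumours in each group called 1166 to 1937 between passages. They called 324 to 591 between controls and 18 to 270 for earlier treatment averaged.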
